A study of Mus musculus with 12 samples.

Results

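The transcripts of 10 genes were followed in sorted dorsal root ganglion neurons: Mrap2 and Mrap, which encode the melanocortin receptor accessory proteins, and 8 peptide receptor genes, Mc1r, Mc3r, Mc4r, Prokr1, Prokr2, Ghsr, Hcrtr1 and Qrfpr. The genes were found by symbol among the 41388 Ensembl genes of the count tables, and all 10 were present. The set was chosen by its counts at L6S1 set against those at L345, with that difference of Mrap2 and of Qrfpr already known, so every value that sets one level against the other for these genes is given below as a description with no test. The 12 libraries fell into 4 groups of 3, lettered A to C except for female L345, which has B to D: female L6S1, male L6S1, female L345 and male L345. L6S1 stands for the lowest lumbar and first sacral ganglia, and L345 for the lumbar ganglia L3, L4 and L5. All mice were adult C57BL/6, labelled 3 months old, and 4 libraries carry the label P90 as well.

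Every group, the L345 groups included, carried the same alleles, RetFloxedEGFP (a floxed Ret knock-in at the Ret locus, heterozygous per the design text, from which EGFP is made after excision) and Scn10a<tm2(cre)Jnw>, a NaV1.8Cre allele that drives Cre recombinase in small-diameter sensory neurons. EGFP therefore marked NaV1.8-lineage neurons with an active Ret locus, and no library came from mice without these alleles. For 4 libraries (female L6S1 B, female L6S1 C, male L6S1 C and female L345 D), which form a later set of records, the genotype label lists 1 of the alleles and the source label lists both. Each library was a pool of 2 to 8 mice and 12 to 32 ganglia, and nothing in the labels says if 1 mouse gave ganglia to pools of both levels, so p-values measure the spread between these pools. The pool behind male L345 C is put at 5 mice by one label and at 3 by another.

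MRAP and MRAP2 are small proteins that cross the membrane once and bind G protein-coupled receptors. MRAP is known for carrying the ACTH receptor MC2R to the cell surface of adrenal cells, and MRAP2 for changing the signalling of the melanocortin receptor MC4R in the hypothalamus, where its loss makes mice obese. In transfected cells MRAP2 also binds prokineticin receptors, the ghrelin receptor GHSR and the orexin receptor HCRTR1, raising the signalling of some and lowering that of others. In sensory neurons the prokineticin receptors are known for sensitising the cells to painful heat.

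Mrap2 lies on chromosome 9 at chr9:87144306-87184045 (plus strand), Qrfpr on chromosome 3 at chr3:36179424-36222275 (minus strand) and Prokr2 on chromosome 2 at chr2:132337733-132385447 (minus strand), in the coordinates of the deposited tables (GRCm38.p2). Their promoters are shown because Mrap2 and Qrfpr had the widest gap between the levels among the 10 genes and Prokr2 was the single one that passed the test between the sexes. The sequences are the 250 bases before each RefSeq gene start (GRCm38.p6), 5′ to 3′ on the gene's strand, from chr9:87144056-87144305, chr3:36222276-36222525 and chr2:132385448-132385697, with the motif matches described next in capitals.
Mrap2: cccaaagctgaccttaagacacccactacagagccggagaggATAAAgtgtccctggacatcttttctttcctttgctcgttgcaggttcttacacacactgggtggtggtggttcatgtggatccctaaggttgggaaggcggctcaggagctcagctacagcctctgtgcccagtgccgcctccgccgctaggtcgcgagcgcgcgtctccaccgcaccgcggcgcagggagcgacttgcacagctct
Qrfpr: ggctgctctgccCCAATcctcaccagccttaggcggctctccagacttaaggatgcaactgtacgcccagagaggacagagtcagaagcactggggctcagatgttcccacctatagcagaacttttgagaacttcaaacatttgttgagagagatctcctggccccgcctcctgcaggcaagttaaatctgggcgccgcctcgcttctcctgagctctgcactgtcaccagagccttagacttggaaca
Prokr2: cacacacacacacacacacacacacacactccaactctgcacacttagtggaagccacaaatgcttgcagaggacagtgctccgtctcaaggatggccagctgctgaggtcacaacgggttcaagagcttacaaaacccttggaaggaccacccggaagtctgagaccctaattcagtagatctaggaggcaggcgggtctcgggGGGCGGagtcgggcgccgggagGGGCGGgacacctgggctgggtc

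These promoters held 60.0% (Mrap2), 54.8% (Qrfpr) and 59.2% (Prokr2) G and C, where the median RefSeq promoter of that length held 52.4%. They held 16, 6 and 10 CG pairs in the same order. Short motifs were searched on both strands. Mrap2 had 1 match to TTTAT, read as ATAAA on the printed strand, which 37.3% of 32851 promoters also held. Qrfpr had 1 match to the CCAAT box, which 33.8% held, and Prokr2 had 2 matches to the GC box GGGCGG, which 32.7% held. None of the 3 windows held TATAAA (12.4% of promoters), TGACG (17.8%) or TAATTA (4.84%), which says only that these letters are not in these windows. The RefSeq table held a promoter for 8 of the 10 genes.

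Library depth ran from 16176436 counts in female L6S1 A up to 26694404 counts in female L345 D, so that 3 counts, used here as the floor of detection, equal 0.112 to 0.185 CPM (counts scaled to a fixed library total). Levels below are CPM with TMM scaling, a correction for library composition, unless RPKM is named, which is the deposited value per library total and gene length without that correction. Marker sums also use each library's own total. The sorted type was checked by its markers. The 10 genes of small-diameter sensory neurons summed to 12600 to 17900 CPM in L6S1 libraries and 12500 to 13600 CPM in L345 libraries. Most of this sum came from Calca (7110 ± 1490 CPM) and Tac1 (2920 ± 709 CPM, SD over 12 libraries). Of these 10, 2 passed as higher at L6S1, Tac1, the substance P precursor gene (log2 0.58 ± 0.12 SE, edgeR adjusted p = 0.0282), and Trpv1, which encodes the channel opened by capsaicin (0.52 ± 0.12, edgeR adjusted p = 0.0424), and none as lower. Both lost the call without any 1 of male L6S1 A and B, female L345 B and C and male L345 A, B and C, and Trpv1 also without female or male L6S1 C (adjusted p up to 0.0913 for Tac1 and 0.138 for Trpv1). The part of this shift in the differences between levels given below was not tested. Ret, one gene of the sort, had 165 ± 33.6 CPM at L6S1 and 176 ± 27.5 CPM at L345 (SD, n = 6 each; log2 fold change -0.09 ± 0.15 SE, edgeR adjusted p = 0.696), and Scn10a, the other, had 429 ± 66.5 and 573 ± 96.0 CPM at L6S1 and L345 (-0.42 ± 0.14, edgeR adjusted p = 0.101). Satellite glia and Schwann cell markers (10 genes) were present everywhere, at 4020 to 4770 CPM in L6S1 and 3830 to 4480 CPM in L345 libraries. Fibroblast markers (7 genes) summed to 123 to 323 CPM in L6S1 and 69.8 to 94.0 CPM in L345 libraries. Most of that sum was Dcn (138 ± 89.9 CPM, SD over 12 libraries). Of the 6 tested, Dcn alone passed as higher at L6S1. Immune markers (9 genes) summed to 10.0 to 160 CPM in L6S1 and 3.40 to 4.76 CPM in L345 libraries. Every L6S1 sum was thus above every L345 sum, and the value of 160 CPM belonged to female L6S1 C. Of the 4 immune markers tested, 3 passed as higher at L6S1 (C1qb, Cd74 and Trac). Fewer cells of a type and less RNA per cell cannot be told apart in these pools.

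The accessory protein gene Mrap2 had the largest gap in CPM between the levels among the 10 genes. It had 23.9, 14.2 and 20.6 CPM in female L6S1 A, B and C and 14.3, 26.2 and 13.2 CPM in male L6S1 A, B and C. It had 5.29, 4.22 and 4.79 CPM in female L345 B, C and D and 3.77, 3.86 and 3.82 CPM in male L345 A, B and C. All 6 L6S1 libraries lay above all 6 L345 libraries, and the lowest L6S1 library (male C) was still above the highest L345 library (female B). The means were 18.7 ± 5.58 CPM at L6S1 and 4.29 ± 0.62 CPM at L345 (SD, n = 6 each), a 4.38-fold difference (log2 2.13 ± 0.20 SE). It was 2.03 ± 0.28 in females and 2.23 ± 0.28 in males on the log2 scale. The spread was wider at L6S1, where female A and male B were the highest libraries of their groups, than at L345, where the 3 male pools lay within 0.1 CPM of each other.

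Mrap2 did not pass the test in the contrasts that had no part in its choice. Female and male libraries averaged 12.2 ± 8.68 and 10.8 ± 8.94 CPM (SD, n = 6 each), a sex difference of 0.22 ± 0.19 (log2, edgeR adjusted p = 0.829), with 5 of 6 female libraries above the male mean of their level. The interaction, the level difference in females minus that in males, was -0.19 ± 0.38 (log2, edgeR adjusted p = 0.961). Fibroblast markers, mostly Dcn, summed to 300.0, 283 and 323 CPM in female L6S1 A, B and C and 123, 182 and 182 CPM in male L6S1 A, B and C. Like Mrap2, these sums were higher in every L6S1 than in every L345 library (69.8 to 94.0 CPM). So were the immune marker sums (10.0 to 160 CPM at L6S1 and 3.40 to 4.76 CPM at L345). Within L6S1 the fibroblast sums of the sexes lay apart, and the Mrap2 ranges of the sexes overlapped. The part of the fibroblast or the immune markers in the Mrap2 level difference was not tested. Without female L6S1 B and C the Mrap2 level difference was 2.27 ± 0.19, and in the 8 libraries of the earlier record set alone it was 2.35 ± 0.19 (log2).

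Mrap, the partner of the ACTH receptor, was low and had a smaller gap. It had 2.07, 1.26 and 1.93 CPM in female L6S1 A, B and C and 1.67, 2.03 and 2.29 CPM in male L6S1 A, B and C. It had 0.9, 1.02 and 1.41 CPM in female L345 B, C and D and 0.708, 0.913 and 1.17 CPM in male L345 A, B and C. The levels overlapped at 1 point, since female L6S1 B lay below female L345 D. Means were 1.88 ± 0.364 CPM at L6S1 and 1.02 ± 0.244 CPM at L345 (SD, n = 6 each; log2 0.87 ± 0.23 SE). Neither the sex contrast (0.03 ± 0.23, edgeR adjusted p = 0.985) nor the interaction (-0.44 ± 0.46, edgeR adjusted p = 0.907) passed. Mrap is best known from adrenal and fat cells. Of 7 adipocyte markers, Plin1 and Lep had no count in any library, Cidec had at most 1, Adipoq at most 4, Retn at most 10 and Fabp4 at most 18. Pparg had 11 to 40 counts (0.916 ± 0.307 CPM, SD over 12 libraries), and the list summed to 0.754 to 1.90 CPM in L6S1 and 0.766 to 1.62 CPM in L345 libraries. The ACTH receptor gene Mc2r itself had between 0 and 7 counts per library and was not tested.

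**Figure D1:**
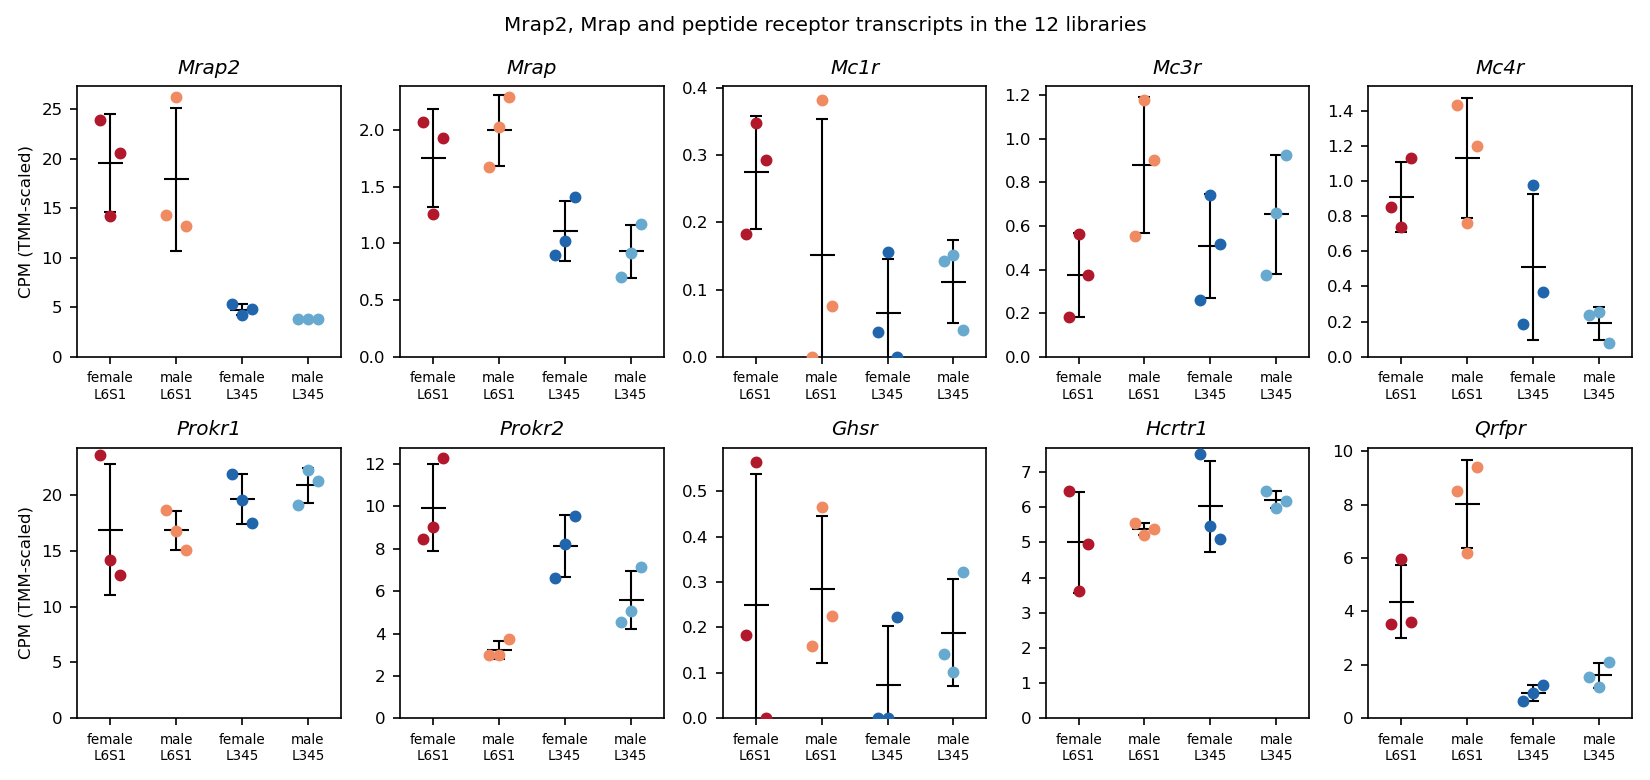
Each panel plots 1 gene: the vertical axis is CPM with TMM scaling from 0, points are the 12 libraries in 4 groups of 3, and black bars are the group mean ± SD. Mrap2 and Qrfpr show all 6 L6S1 libraries above all 6 L345 libraries, while Prokr2 separates females from males at L6S1, and Mc1r and Ghsr stay at or under 0.565 CPM.

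The melanocortin receptors were near the limit of detection. Mc4r, the receptor of α-MSH and of the antagonist AgRP that is known for appetite control, had 14, 17 and 27 counts in female L6S1 A, B and C and 36, 18 and 32 counts in male L6S1 A, B and C. It had 5, 25 and 10 counts in female L345 B, C and D and 5, 5 and 2 counts in male L345 A, B and C. Most L345 libraries were thus near the floor, but female L345 C lay inside the L6S1 range. Means were 1.02 ± 0.278 CPM at L6S1 and 0.351 ± 0.321 CPM at L345 (SD, n = 6 each; log2 1.71 ± 0.41 SE), with 0.83 ± 0.54 in females and 2.58 ± 0.61 in males. The interaction of -1.75 ± 0.82 did not pass (edgeR adjusted p = 0.871), nor did the sex contrast of 0.56 ± 0.41 (edgeR adjusted p = 0.799). Without female L345 C they were -0.90 ± 0.77 and 0.13 ± 0.38, and without male L345 C the sex contrast was 0.37 ± 0.43.

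Mc3r, a melanocortin receptor of the brain and gut, had 0.183, 0.565 and 0.377 CPM in female L6S1 A, B and C and 0.556, 1.18 and 0.903 CPM in male L6S1 A, B and C. It had 0.262, 0.742 and 0.520 CPM in female L345 B, C and D and 0.377, 0.660 and 0.925 CPM in male L345 A, B and C. The levels overlapped throughout, with means of 0.628 ± 0.362 CPM at L6S1 and 0.581 ± 0.244 CPM at L345 (SD, n = 6 each; log2 0.01 ± 0.40 SE). Female libraries averaged 0.442 ± 0.207 CPM and male libraries 0.768 ± 0.292 CPM (SD, n = 6 each), with 5 of 6 female libraries under the male mean of their level. That difference of -0.78 ± 0.37 did not pass (edgeR adjusted p = 0.764).

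Mc1r, the melanocortin receptor of pigment cells, fell under the filter on low counts. It had 3, 8 and 7 counts in female L6S1 A, B and C, 0, 9 and 2 in male L6S1 A, B and C, 1, 4 and 0 in female L345 B, C and D, and 3, 3 and 1 in male L345 A, B and C. That is 41 counts in all 12 libraries, 29 at L6S1 and 12 at L345, and 4 of the 12 libraries had more than 3 counts. Melanocyte markers (6 genes) summed to 5.62 to 12.6 CPM in L6S1 and 6.17 to 11.6 CPM in L345 libraries, mostly from Tyrp1 (102 to 263 counts per library, 7.07 ± 2.12 CPM over 12 libraries). Mitf had 8 to 46 counts and Pmel 0 to 39, while Mlana had at most 3 and Tyr at most 2 in any library. Mc1r lies inside the annotated span of the readthrough gene Gm20388 on the same strand, which had 0 counts. That 0 does not show how reads lying in both genes were counted. Mc1r also overlaps Gm38092 on the other strand, which is not a row of the count tables. The strand setting is not given, so reads of Gm38092 cannot be told apart from those of Mc1r.

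The prokineticin receptors gave the one difference that passed a test among the 10 genes. Prokr1, the more abundant of the pair, had 23.6, 14.2 and 12.8 CPM in female L6S1 A, B and C and 18.6, 16.8 and 15.1 CPM in male L6S1 A, B and C. It had 21.9, 19.5 and 17.5 CPM in female L345 B, C and D and 19.1, 22.2 and 21.2 CPM in male L345 A, B and C. The ranges overlapped, with female L6S1 A the highest of all 12 libraries and the other 5 L6S1 libraries below the L345 mean of their sex. Means were 16.8 ± 3.88 CPM at L6S1 and 20.2 ± 1.83 CPM at L345 (SD, n = 6 each; log2 -0.26 ± 0.16 SE). Female and male libraries averaged 18.2 ± 4.24 and 18.8 ± 2.65 CPM (log2 -0.04 ± 0.16, edgeR adjusted p = 0.967).

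Prokr2 was higher in females. Female L6S1 A, B and C had 8.48, 9.04 and 12.3 CPM, and male L6S1 A, B and C had 2.98, 3.00 and 3.72 CPM. Female L345 B, C and D had 6.63, 8.21 and 9.54 CPM, and male L345 A, B and C had 4.53, 5.07 and 7.12 CPM. At L6S1 the sexes were wide apart, and at L345 they overlapped at female B and male C. Over both levels, females averaged 9.04 ± 1.89 CPM and males 4.4 ± 1.57 CPM (SD, n = 6 each), and 6 of 6 female libraries lay above the male mean of their level (log2 1.08 ± 0.17 SE, edgeR adjusted p = 0.033). It was the only 1 of the 8 tested genes to pass, where 0.0589% of all genes tested did, 9 of 15281, and 0.0131% with the higher level in females. The other 8 were Xist, higher in females, and Kdm5d, Uty, Ddx3y, Eif2s3y, Uba1y, Gm29650 and Gm4017, lower in females.

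Within L6S1, Prokr2 had 9.95 ± 2.07 CPM in females and 3.24 ± 0.423 CPM in males (SD, n = 3 each; log2 1.62 ± 0.25 SE, edgeR adjusted p = 0.0235), in a contrast that 0.072% of genes passed. Within L345 it had 8.13 ± 1.45 CPM in females and 5.57 ± 1.36 CPM in males (SD, n = 3 each; log2 0.54 ± 0.24 SE, edgeR adjusted p = 1.0), where 0.0393% passed. That the sex difference was larger at L6S1 was not shown: the interaction of 1.08 ± 0.35 had an unadjusted p of 0.0073 in the edgeR fit and an adjusted p of 0.871. No gene passed the interaction test (0% of 15281), while 4.67% had an unadjusted p under 0.05, and DESeq2 and limma-voom each called 2 genes. Without female L6S1 A, edgeR called 817, Prokr2 not among them (adjusted p = 0.0747). The level difference was 0.29 ± 0.24 in females and -0.79 ± 0.25 in males on the log2 scale.

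The sex difference of Prokr2 kept its size under other settings, while its call did not. The estimate stayed between 0.95 and 1.19 in all 23 alternatives, but the adjusted p passed the threshold in 11 of them. The edgeR adjusted p was 0.18 without male L6S1 A, 0.177 without male L6S1 B, 0.0673 without male L6S1 C, 0.133 without female L345 C, 0.149 without female L345 D, 0.189 without male L345 A and 0.157 without male L345 B. With the record set as a term it was 0.133 (log2 0.96 ± 0.17), and in the 8 earlier libraries alone it was 0.224 (0.95 ± 0.19). Without female L6S1 A, which had the lowest total count, 991 genes passed by sex and Prokr2 was among them (1.13 ± 0.17, adjusted p = 0.00133). The fibroblast marker sum, mostly Dcn, was also higher in female than in male L6S1 libraries (283 to 323 CPM against 123 to 182 CPM). At L345 it was 73.6 to 94.0 CPM in females and 69.8 to 79.4 CPM in males. Immune markers summed to 15.1, 15.4 and 160 CPM in female and 10.3, 10.0 and 11.3 CPM in male L6S1 A, B and C, and at L345 to 3.40 to 4.50 CPM in females and 3.75 to 4.76 CPM in males. The part of either list in the Prokr2 difference was not tested.

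The balance of both receptors followed the same split. It is computed from the same Prokr2 values, and Prokr1 did not pass by sex, so it is no separate result. Per length, Prokr1 exceeded Prokr2 in every library, and the ratio of their RPKM was 5.44, 3.07 and 2.03 in female L6S1 A, B and C and 12.2, 10.9 and 7.91 in male L6S1 A, B and C. It was 6.43, 4.63 and 3.58 in female L345 B, C and D and 8.22, 8.53 and 5.81 in male L345 A, B and C. Every male L6S1 library had a higher ratio than every female library of the same level, while at L345 female B lay above male C. The size of these ratios depends on the length used. The deposited RPKM divides by a counted length of 7919 bases for Prokr2 and 4055 for Prokr1, where their annotated transcripts have 4486 and 4230 bases. In CPM, without length, Prokr1 also exceeded Prokr2 in every library, but only narrowly in female L6S1 C (12.8 against 12.3 CPM). Prokr1 and Prokr2 are paralogs, and no source used here says how reads that match both were counted. The prokineticin ligand genes were almost silent, with no count of Prok1 in any library and at most 6 counts of Prok2.

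**Figure D2:**
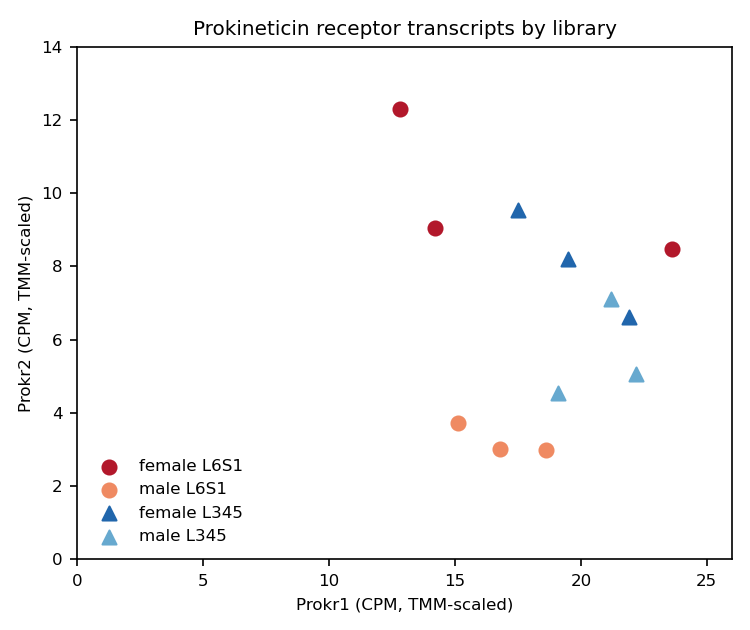
Each point is 1 library, with Prokr1 on the horizontal and Prokr2 on the vertical axis, both in TMM-scaled CPM from 0; circles are L6S1, triangles L345. The 3 male L6S1 libraries lie lowest on Prokr2 (2.98 to 3.72 CPM), and the 3 female L6S1 libraries at 8.48 CPM and above, with no such split on Prokr1.

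The receptor of ghrelin was near the floor, and that of the orexins overlapped between the levels. Ghsr, the growth hormone secretagogue receptor, fell under the filter, with 3, 13 and 0 counts in female L6S1 A, B and C and 4, 11 and 6 in male L6S1 A, B and C. It had 0, 0 and 6 counts in female L345 B, C and D and 3, 2 and 8 in male L345 A, B and C. The total was 56 counts over all libraries, 37 at L6S1 and 19 at L345, with zeros at both levels. Hcrtr1, a receptor of the orexin peptides, had 6.47, 3.61 and 4.94 CPM in female L6S1 A, B and C and 5.56, 5.21 and 5.38 CPM in male L6S1 A, B and C. It had 7.50, 5.47 and 5.09 CPM in female L345 B, C and D and 6.46, 5.99 and 6.19 CPM in male L345 A, B and C. These ranges overlapped, with means of 5.19 ± 0.935 CPM at L6S1 and 6.12 ± 0.84 CPM at L345 (SD, n = 6 each; log2 -0.24 ± 0.17 SE), a gap no wider than the spread between pools. The sex contrast of Hcrtr1 was -0.08 ± 0.17 (edgeR adjusted p = 0.939) and its interaction -0.06 ± 0.34 (edgeR adjusted p = 0.99).

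Qrfpr, the receptor of the RFamide peptide QRFP, had the largest fold difference of the 10 genes between the levels. It had 3.54, 5.95 and 3.6 CPM in female L6S1 A, B and C and 8.49, 6.18 and 9.40 CPM in male L6S1 A, B and C. It had 0.637, 0.938 and 1.23 CPM in female L345 B, C and D and 1.56, 1.17 and 2.09 CPM in male L345 A, B and C. Every L6S1 library lay above every L345 library, as for Mrap2, and within L6S1 the order was another one: all 3 male pools lay above all 3 female pools. Means were 6.20 ± 2.43 CPM at L6S1 and 1.27 ± 0.506 CPM at L345 (SD, n = 6 each), a 4.81-fold difference (log2 2.27 ± 0.23 SE), with 2.22 ± 0.34 in females and 2.31 ± 0.32 in males. Mrap2 and Qrfpr were the 2 of 8 tested genes with all L6S1 above all L345 libraries, which 2.02% of all genes showed, and nothing is read from that count since both were chosen for it.

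By sex, Qrfpr went the opposite way to Prokr2 in sign but did not pass. Females averaged 2.65 ± 2.08 CPM and males 4.82 ± 3.68 CPM (SD, n = 6 each), where the SD holds both levels. All 6 female libraries lay under the male mean of their level (log2 -0.83 ± 0.23 SE, edgeR adjusted p = 0.71). The adjusted p stayed between 0.0683 and 0.954 over the alternatives. The interaction was -0.09 ± 0.47 (edgeR adjusted p = 0.99). Qrfpr overlaps 2 annotated genes that are not rows of the count tables, Gm43255 on the other strand and the pseudogene Gm18893, and since the strand setting is not given, reads of the antisense gene cannot be told apart from its own.

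**Figure D3:**
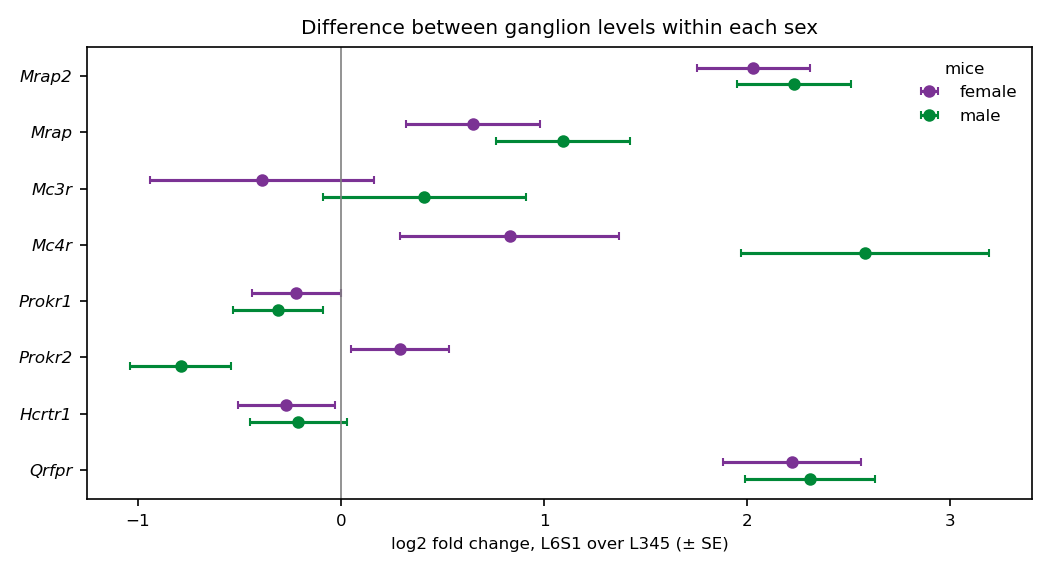
Points are the log2 fold change of L6S1 over L345 in female and in male mice for the 8 tested genes, and bars are ± SE (3 libraries against 3 within each sex). Mrap2 and Qrfpr lie between 2.03 and 2.31 in both sexes, Mc4r at 0.83 and 2.58, and Prokr2 at 0.29 in females and -0.79 in males; none of the 8 interactions passed after adjustment.

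Per length, the order of the 10 genes changed with the level. At L6S1 the deposited RPKM ran from Mrap2 (8.20 ± 2.48) through Prokr1 (4.12 ± 1.01), Qrfpr (2.85 ± 1.12), Hcrtr1 (1.97 ± 0.376), Mrap (1.27 ± 0.258), Prokr2 (0.820 ± 0.479), Mc4r (0.365 ± 0.0975) and Mc3r (0.237 ± 0.138) to Ghsr (0.0596 ± 0.0466) and Mc1r (0.0575 ± 0.0412; SD, n = 6). At L345 it ran from Prokr1 (5.03 ± 0.443) through Hcrtr1 (2.37 ± 0.337), Mrap2 (1.92 ± 0.286), Prokr2 (0.874 ± 0.24), Mrap (0.702 ± 0.166), Qrfpr (0.595 ± 0.235), Mc3r (0.223 ± 0.0925) and Mc4r (0.129 ± 0.118) to Ghsr (0.0298 ± 0.0287) and Mc1r (0.0243 ± 0.0192; SD, n = 6). Mrap2 exceeded Prokr1 in 6 of 6 L6S1 libraries, though the ranges of the 2 genes touched, while in every L345 library Prokr1 exceeded Mrap2. Most neighbours in these orders had overlapping ranges. The exceptions were at L345, where Prokr1 lay above Hcrtr1 and Mrap2 above Prokr2 in all 6 libraries without overlap. The place of Prokr2 in both orders depends on its counted length of 7919 bases, where its annotated transcript has 4486.

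The genes whose profile lay nearest to that of Mrap2 were found by the root mean square difference of log2 CPM over the 12 libraries, each gene centred on its own mean, among 11666 genes. They were Gsta4 (0.33), C1qtnf7 (0.35), Negr1 (0.38), Chrnb4 (0.39) and Kcnk2 (0.39), where the spread of Mrap2 itself was 1.07. Gsta4, a glutathione transferase gene, had 49.6 ± 3.46 CPM at L6S1 and 11.6 ± 1.25 CPM at L345 (SD, n = 6 each), with little spread within each level. Chrnb4, a nicotinic acetylcholine receptor subunit gene, had 60.3, 31.1 and 49.2 CPM in female L6S1 A, B and C and 17.4, 38.8 and 21.6 CPM in male L6S1 A, B and C. Female A and male B were the highest pools of their groups for Chrnb4, C1qtnf7, Negr1 and Kcnk2, as for Mrap2, but not for Gsta4. These genes were picked for nearness to Mrap2 over the same libraries, so nothing is read from that likeness. At L345 Chrnb4 lay between 5.32 and 8.85 CPM. Kcnk2, a potassium channel gene, had 38.2 ± 9.89 CPM at L6S1 and 13.3 ± 1.32 CPM at L345.

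Qrfpr came at rank 86 from Mrap2 (0.76), and Mrap2 at rank 16 from Qrfpr. The nearest to Qrfpr were Gsta4 (0.51), Trac (0.56), Penk (0.59), Serpina3c (0.60) and Cbln1 (0.67), where its own spread was 1.22. Penk, the enkephalin precursor gene, had 75.2 ± 49.7 CPM at L6S1 and 13.8 ± 6.58 CPM at L345, and Trac, a T cell receptor gene and one of the immune markers, 4.02 ± 1.36 and 0.850 ± 0.258 CPM at L6S1 and L345 (SD, n = 6 each). With the 4 group means taken out, the nearest to Mrap2 were Cdkn1b (0.11), Mx2 (0.14), Arnt (0.14), Nhlrc3 (0.15) and Nrip3 (0.15), and Qrfpr came at rank 11075 of 11666 (0.55). To Qrfpr they were Adpgk (0.12), Pcdhb7 (0.16), Cry1 (0.17), Nckap5l (0.18) and Adprhl1 (0.18), and Mrap2 came at rank 9951. These genes too were picked for nearness over the same libraries, so nothing is read from it. Their level log2 fold changes ran from -0.69 (Cdkn1b) to 0.33 (Mx2) in the Mrap2 list. In the Qrfpr list they ran from -0.84 (Nckap5l) to 0.73 (Adprhl1). The split between levels was known for Mrap2 and Qrfpr when they were chosen, so nothing is read from its being shared. The differences among pools of a group were not alike in the 2 genes.

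**Figure D4:**
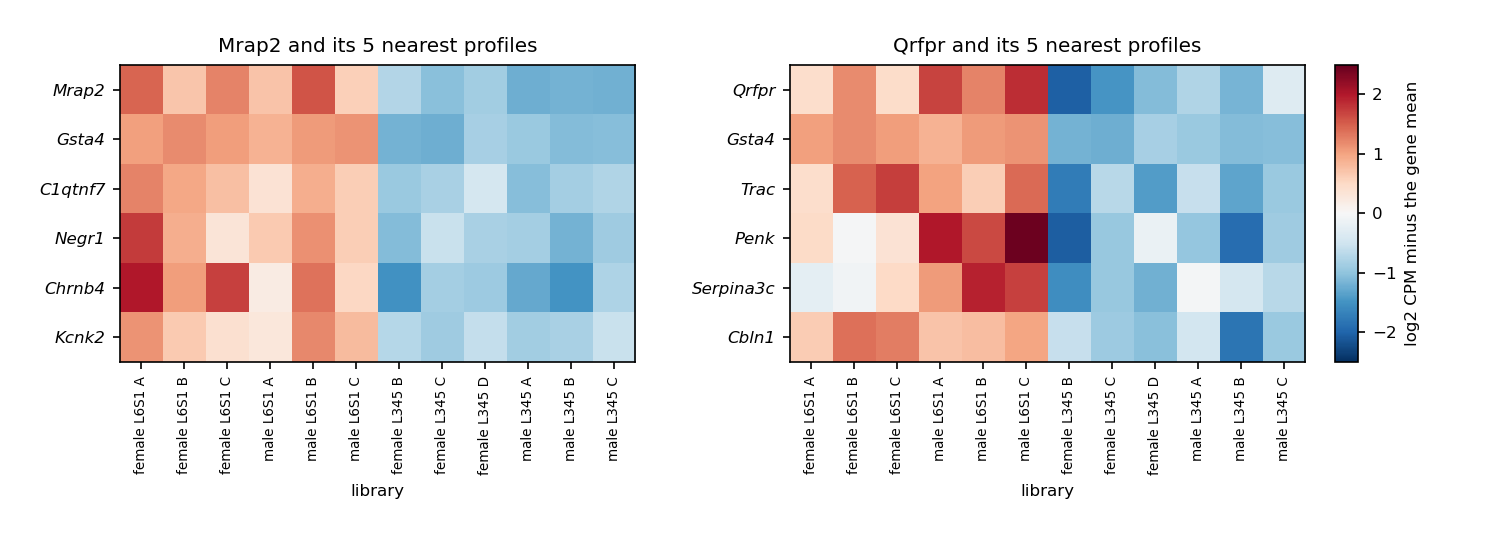
Rows are Mrap2 (left) and Qrfpr (right) with their 5 nearest genes, columns are the 12 libraries with L6S1 left of L345, and colour is log2 CPM minus the gene's mean over the libraries. Every row has its higher mean at L6S1, and within L6S1 the Qrfpr row is highest in male pools (8.49, 6.18 and 9.40 CPM), where the Mrap2 row is highest in female A and male B (23.9 and 26.2 CPM).

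The surrounding pathway was described with 7 lists, 161 genes in all, of which 159 were in the tables and 116 were tested between the levels. Of these, 3 were higher at L6S1, 4 were lower and 109 did not pass, or 6.03% called where 2.33% of all genes tested were (1.45% higher and 0.877% lower). Nothing is read from that share, since Qpct and Pcsk1, which are among the 3, were known to differ when the lists were drawn up. The median over the 116 was -0.17 on the log2 scale, and that of all genes -0.06, and 42 of the 116 had a positive value where 44.5% of all genes did. None of the 116 passed between the sexes in edgeR, and 9 had an unadjusted p under 0.05. DESeq2 called 2 of them by sex, and without female L6S1 A edgeR called 9.

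Of the 9 ligand genes, 8 were in the tables and only 2 passed the filter, neither differing by the test. Pomc, the precursor of α-MSH and ACTH, had 1.79 ± 0.504 CPM at L6S1 and 1.62 ± 0.719 CPM at L345 (log2 0.13 ± 0.28, edgeR adjusted p = 0.775). Agrp, the melanocortin antagonist gene, had 3.91 ± 1.13 CPM at L6S1 and 3.06 ± 0.574 CPM at L345 (0.35 ± 0.21, edgeR adjusted p = 0.292). Both, like Prok1, Prok2, Mc2r and Hcrtr2, were named after their values were seen. The genes of the ghrelin, orexin and QRFP precursors (Ghrl, Hcrt, Qrfp) had at most 2, 2 and 12 counts in a library.

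Among 12 genes of peptide processing and ligand modulation, 2 were higher at L6S1 and 10 did not pass (median log2 fold change 0.04). Qpct, which encodes glutaminyl cyclase, the enzyme that forms N-terminal pyroglutamate on peptides, had 39.2, 47.4 and 33.5 CPM in female L6S1 A, B and C and 20.2, 40.4 and 23.4 CPM in male L6S1 A, B and C. At L345 it had 5.40, 4.57 and 6.53 CPM in female B, C and D and 5.14, 5.94 and 7.88 CPM in male A, B and C. No L6S1 library came near the L345 range (2.5 ± 0.20, edgeR adjusted p = 1.64e-05). Pcsk1, a prohormone convertase gene, had 54.3 ± 12.3 CPM at L6S1 and 25.6 ± 3.83 CPM at L345 (1.07 ± 0.16, edgeR adjusted p = 0.00292), and its levels did not overlap either (36.2 to 66.3 CPM against 18.6 to 29.0 CPM). Both passed in all 23 alternatives, which refit the same data. Since both were known to differ when the lists were drawn up, these p-values describe them and are no independent test.

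Among 14 further receptor genes of the same families, 7 were tested and 1 was higher at L6S1 (median -0.12). Npffr2, the receptor of neuropeptide FF, had 1.29 ± 0.435 CPM at L6S1 and 0.496 ± 0.235 CPM at L345 (1.35 ± 0.32, edgeR adjusted p = 0.0452). The orexin receptor gene Hcrtr2 was more abundant than Hcrtr1, with 4.31 ± 0.952 RPKM over the 12 libraries against 2.17 ± 0.399 RPKM, and did not pass between the levels (25.6 ± 7.44 CPM at L6S1 and 27.5 ± 3.62 CPM at L345; -0.12 ± 0.17, edgeR adjusted p = 0.658). Of 53 other peptide receptor genes, 30 were tested, 1 was lower at L6S1 and 29 did not pass (median 0.01). That one was Oprd1, the delta opioid receptor gene, with 0.797 ± 0.292 CPM at L6S1 and 1.74 ± 0.432 CPM at L345 (-1.18 ± 0.25, edgeR adjusted p = 0.0309).

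The 3 lists of receptor accessory, desensitisation and signalling genes had medians below that of all genes. Of 21 genes for receptor accessory proteins and desensitisation, 19 were tested and 1 fell (median -0.20): Grk3, a receptor kinase gene, with 12.4 ± 1.46 CPM at L6S1 and 20.5 ± 3.48 CPM at L345 (-0.72 ± 0.15, edgeR adjusted p = 0.0256). Of 31 genes of Gs and cAMP signalling, 29 were tested and 1 fell (median -0.22): Adcy1, an adenylyl cyclase gene, with 5.82 ± 1.14 CPM at L6S1 and 9.62 ± 1.14 CPM at L345 (-0.73 ± 0.16, edgeR adjusted p = 0.0327). Of 21 genes of Gq and calcium signalling, 17 were tested and 1 fell (median -0.36): Itpr1, an IP3 receptor gene, with 5.11 ± 0.893 CPM at L6S1 and 8.53 ± 0.569 CPM at L345 (-0.74 ± 0.15, edgeR adjusted p = 0.022). Across all genes the level log2 fold change went down with transcript length (Spearman's rho -0.41 over 15193 genes, which are not independent replicates). With offsets for GC content and length, Adcy1 was at -0.41 (adjusted p = 0.0879) and Itpr1 at -0.47 (adjusted p = 0.0558).

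These 5 single calls were not stable to the loss of 1 library. The adjusted p of Npffr2 passed only without female L6S1 A, female L6S1 C or female L345 D and otherwise reached 0.129. That of Oprd1 passed without female L6S1 A, female L6S1 C, female L345 D or male L345 B and otherwise reached 0.0978. Those of Adcy1 and Grk3 passed without female L6S1 A, B or C, female L345 D or male L345 B, and for Grk3 also without male L6S1 B, and otherwise reached 0.113 and 0.0897. That of Itpr1 passed without female L6S1 A, B or C or female L345 D and otherwise reached 0.0776. Their estimates kept their sign in all of these fits.

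**Figure D5:**
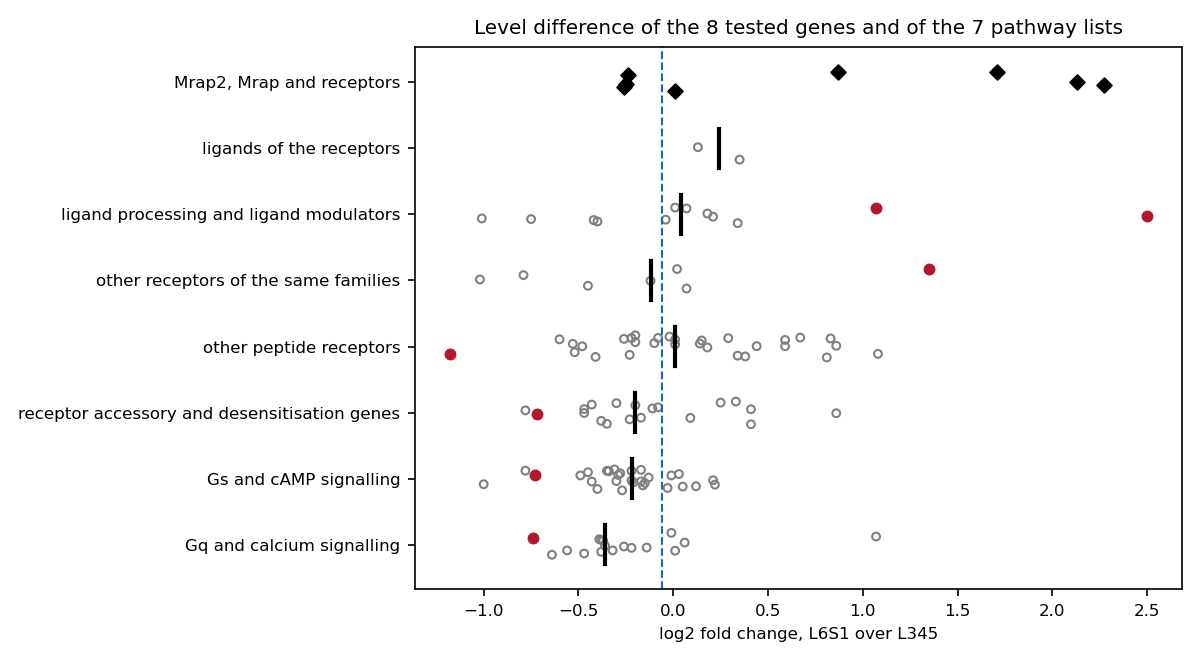
Each symbol is the log2 fold change of L6S1 over L345 of 1 tested gene: black diamonds are Mrap2, Mrap and 6 receptor genes, circles are the genes of the 7 lists, filled red where the edgeR adjusted p passed 0.05. Black bars are list medians and the dashed line is the median of all genes (-0.06). Qpct (2.5) lies as far right as Mrap2 (2.13) and Qrfpr (2.27). The medians of the 3 lists of receptor accessory, desensitisation and signalling genes lie between -0.36 and -0.20.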

How the data were processed

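The members and lists were chosen with earlier results of these data known. For each library the authors deposited a table of counts, CPM and RPKM by Ensembl gene. The submitters' processing notes name Subread, featureCounts 1.4.5 and GRCm38.p2. The deposited CPM and RPKM followed from the counts in 12 of 12 libraries. No source used here gives the strand setting, the annotation release or the handling of multi-mapped reads. Symbols came from a GENCODE annotation.

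The test was the quasi-likelihood F-test of edgeR 4.0.16 (R 4.3.3; TMM, filterByExpr, robust fit of 4 group means, 8 residual degrees of freedom, Benjamini-Hochberg over 15281 genes, adjusted p threshold 0.05), after tests on simulated data. Mc1r and Ghsr fell under the filter. The common biological coefficient of variation was 0.239. Floors of 3 counts cover counting error only. Libraries of a group differed beyond sampling noise (chi-square per degree of freedom 10.6 to 140). Named genes were all members, up to 4 called genes per list and direction, and the 5 nearest profiles to Mrap2 and Qrfpr (log2 CPM with a prior count of 2, mean of at least 2 CPM). Alternatives changed the scaling, filter, test, record set, GC and length offsets, block and libraries. Those of Tac1 and Trpv1 were chosen after seeing the data.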

Additional observations from a re-analysis of the deposited data

Results flagged for a closer look

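Mc4r at L345 was flagged because 1 pool stood apart: female L345 C had 0.977 CPM, where the next of the 6 L345 libraries had 0.371 CPM. That gap was 0.676 of the range of the 6 values, above Dixon's critical value of 0.625. In all, 32 groups were checked in this way, and chance flags about 1 in 20.

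Prokr2 was flagged because its level difference had opposite signs in the sexes, 0.29 in females and -0.79 in males on the log2 scale. The test of that difference, the interaction, had an unadjusted p of 0.0073 in the edgeR fit and did not pass after adjustment (adjusted p = 0.871).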

How the results depend on the processing

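Each group had 3 pools, and low genes (Mc1r, Mc3r, Mc4r, Ghsr) were near the floor. Leaving out female L6S1 A, the shallowest library, changed the counts of calls most. Same-letter libraries did not all deviate together (15 pairs, correlations -0.199 to 0.311, 7 over 0.1), so letters were not taken as pairs. Of the 6 pairs of B libraries 5 were over 0.1, and 5 of 12 libraries correlated best with one of their own letter, a hint from the data and not the design.

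Over 23 alternatives the level difference stayed between 1.94 and 2.35 for Mrap2 and between 2.11 and 2.43 for Qrfpr, and that of Mc4r, fitted in 22, between 1.51 and 2.13. Genes differing by level numbered 356, against 1518 with DESeq2, 3268 with limma-voom, 841 with no filter, 125 with the record set as a term, 749 with GC and length offsets, 137 without female L6S1 B and C, 1985 with the replicate block and 1024 with the replicate block and the offsets. Those differing by sex numbered 9, against 31 with DESeq2 and 24 with no filter. Interactions numbered 0, against 2 with DESeq2, 2 with limma-voom and 3 with no filter. The 3 pathway genes higher at L6S1 became 6 with DESeq2. The 4 lower became 10 with DESeq2, 25 with limma-voom, 0 with the record set as a term, 0 without female L6S1 B and C, 10 in the 8 earlier libraries, 17 with the replicate block and 8 with the replicate block and the offsets. The 0 pathway genes by sex became 2 with DESeq2 and 2 with no filter. The causes were not tested. Leaving out 1 library gave 80 (without female L345 B) to 4031 (without female L6S1 A) genes by level, 7 to 991 by sex, 0 to 817 interactions, 2 to 7 pathway genes higher, 0 to 25 lower and 0 to 9 by sex, each highest without female L6S1 A.

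Signs changed only for values that did not pass. The Prokr1 interaction was -0.12 with limma-voom, -0.10 with the replicate block and -0.02 with the block and offsets, and Qrfpr's 0.14, 0.21 and 0.13. The Mc3r level difference was -0.12 with the record set as a term, -0.01 with the offsets, -0.53 in the earlier libraries and -0.52 without female L6S1 B and C. The sex difference of Mrap was -0.03 with the record set, -0.09 with the replicate block and -0.02 with the block and offsets. That of Prokr1 was 0.08 with the record set, 0.02 with the block, 0.20 in the earlier libraries and 0.21 without female L6S1 B and C. That of Hcrtr1 was 0.01 with the record set, 0.01 with the block, 0.09 with the offsets, 0.19 with both, 0.16 in the earlier libraries and 0.11 without female L6S1 B and C, and its interaction 0.35 with the offsets, 0.15 with both, 0.17 in the earlier libraries and 0.31 without female L6S1 B and C. The Prokr2 level difference was 0.06 with the block and offsets, the Mrap interaction 0.10 in the earlier libraries and the Mrap2 interaction 0.09 without female L6S1 B and C. With 1 library left out, values ran from -0.19 to 0.19 (Mc3r level), -0.08 to 0.13 (Mrap sex), -0.24 to 0.27 (Prokr1 interaction), -0.20 to 0.05 (Prokr1 sex), -0.37 to 0.15 (Qrfpr interaction), -0.19 to 0.02 (Hcrtr1 sex), -0.29 to 0.13 (Hcrtr1 interaction) and -0.36 to 0.18 (Mrap2 interaction).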
